A study of Homo sapiens with 4 samples.

Results

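The genes of DNA replication licensing were followed by RNA-seq in RD and JR1 cells after knockdown of SKP2, the substrate-binding subunit of an SCF ubiquitin ligase. The set holds MCM2, MCM3, MCM4, MCM5, MCM6, MCM7, MCM10, CDC6, CDT1 and GMNN. It was listed by gene symbol and not by a cut-off on a value, but with earlier results of these data known. All 10 were found among the 39323 genes of the tables, and all 10 were among the 12985 genes that averaged at least 1 TPM (a level scaled for transcript length and for the total of the library) over the 4 libraries, called expressed genes hereafter. RD and JR1 are established lines of fusion-negative rhabdomyosarcoma, a tumour of the skeletal muscle lineage that lacks the PAX-FOXO1 fusion. RD comes from a recurrent tumour and JR1 from a metastatic one. Each line was infected with a lentivirus that carried either shSKP2.2, a single hairpin that targets SKP2, or shSCR, a control hairpin of scrambled sequence, and transduced cells were selected with puromycin. Each line and hairpin has 1 library of poly-A RNA, so neither a second hairpin nor untransduced cells stand behind any value here. Without replicates no difference below could be set against a spread between samples, and no p-value is given. The time between infection and RNA collection is not given in the sources used here. Depth is unknown, since TPM keep no read counts.

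Licensing is the loading of the MCM helicase onto replication origins before S phase. The origin recognition complex (ORC), CDC6 and CDT1 together place rings of MCM2 to MCM7 on DNA, and geminin (GMNN) binds CDT1 during S and G2 phase and so blocks further loading until the cell has divided. MCM10 is not a loader but binds the loaded helicase and helps to set it in motion. The CDT1 protein is degraded through SCF with SKP2 and through CRL4 with DTL, which acts on the protein and not on the transcripts measured here. Many of these genes are classical targets of E2F transcription factors, and their transcripts are most abundant in proliferating cells.

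SKP2 itself, on chromosome 5 from base 36152067 to base 36184319 of GRCh38, was at 92.8 TPM in RD shSCR and 7.40 TPM in RD shSKP2.2. In JR1 it was at 46.5 TPM with shSCR and 2.72 TPM with shSKP2.2. The shSKP2.2 libraries thus kept 7.97% of the shSCR level in RD and 5.85% in JR1, in the direction that the labels of the 4 libraries give. Among the muscle lineage markers MYOD1, MYOG, DES and CHRNA1 lay between 31.6 and 425 TPM in the 4 libraries, while MYF5 was listed at 0 in all of them. MYOG and CHRNA1, genes of differentiating muscle, were higher with shSKP2.2, where MYOG was at 58.4 against 31.6 TPM in RD and at 107 against 54.0 TPM in JR1, and CHRNA1 at 314 against 196 TPM and at 425 against 284 TPM. MYOD1 was at 93.8 against 87.0 TPM and at 131 against 101 TPM, and DES at 43.4 against 39.3 TPM in RD and at 36.0 against 51.3 TPM in JR1. The part of this state of the cells in the lower licensing levels was not tested. The blood markers PTPRC, CD3E and HBB did not exceed 0.08 TPM. Of the epithelial and endothelial markers, EPCAM, CDH1, KRT5, PECAM1, VWF and CDH5 did not exceed 0.38 TPM. CLDN4 and TIE1 were the exceptions, and their levels moved with the hairpin. Through them the sum of the 4 epithelial markers went from 5.84 to 1.74 TPM in RD cells and from 4.28 to 1.19 TPM in JR1 cells, and that of the 4 endothelial markers from 5.31 to 0.76 TPM in RD cells and from 2.42 to 0.18 TPM in JR1 cells. The part of other cells in the values below was not tested.

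One feature of the libraries touched every level. Short structural RNA genes, 683 genes by symbol, held 50.1% of all TPM with shSCR and 62.3% with shSKP2.2 in RD, and 57.1% and 64.9% in JR1. The symbols searched were mainly those of small nuclear, small nucleolar, Cajal body, vault, Y and signal recognition particle RNAs. Symbols of ribosomal RNAs, not all of them short, were searched as well. TPM sum to the same total in each library, and the median log2 change of the expressed genes from shSCR to shSKP2.2 was -0.27 in RD and -0.21 in JR1. Each change of a licensing gene is therefore given within a line as the log2 ratio of TPM + 1, shSKP2.2 over shSCR, also relative to that median, and after removal of the structural RNA genes with TPM rescaled to the same total. After the removal the median of all 14736 genes then expressed was 0.10 in RD and 0.03 in JR1. The added 1 TPM understates the change of genes with low levels.

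The licensing genes lie on separate chromosomes for the most part. By the coordinates of the deposited tables on GRCh38, MCM2 is on chromosome 3 from base 127598411 to 127622436, and MCM3 on chromosome 6 from base 52264015 to 52284742. MCM5 is on chromosome 22 from base 35400133 to 35454942, MCM6 on chromosome 2 from base 135839626 to 135876443, and MCM7 on chromosome 7 from base 100092728 to 100101397. MCM10 is on chromosome 10 from base 13161558 to 13211110, CDC6 on chromosome 17 from base 40287878 to 40304657, CDT1 on chromosome 16 from base 88803789 to 88809258, and GMNN on chromosome 6 from base 24774937 to 24786099. The MCM7 interval also holds the microRNA genes MIR106B, MIR25 and MIR93, which were listed at 0 in all 4 libraries. Poly-A libraries are not made to measure microRNAs, so these values do not show that they were absent. The MCM2 interval overlaps LOC107986126, at 1.38 to 3.42 TPM, so a small part of the reads there could belong to either gene.

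E2F factors are known regulators of many of these genes. The promoters of the licensing genes were therefore read from RefSeq on GRCh38.p14, from 250 bases before to 50 bases after the gene start. Promoters of 8 of the 10 genes were matched, and those of MCM4 and MCM5 were not analysed here. The E2F words searched were TTTCCCGC, TTTGGCGC, TTTGCCGC and TTTCGCGC on both strands. At least 1 of these words was found in 6 of the 8 promoters, those of MCM2, MCM3, MCM6, MCM7, CDC6 and CDT1, against 3.33% of all 27305 promoters of the table and 5.64% of the 10090 promoters that belong to expressed genes. 4 of the 8 are printed below, 5′ to 3′ on the strand of the gene, with the E2F words in capitals. MCM2 (chr3:127598161-127598460, plus strand) and MCM6 (chr2:135876394-135876693, minus strand) are shown because words of both strands overlap there. CDC6 (chr17:40287629-40287928, plus strand) is shown because it kept a lower share of its level than CDT1 in both lines. MCM10 (chr10:13161308-13161607, plus strand) is shown as a promoter without such a word. On TPM + 1, 2.53% of the expressed genes had a lower change than MCM10 in RD and 14.2% in JR1. A link between these words and the changes was not tested.
MCM2: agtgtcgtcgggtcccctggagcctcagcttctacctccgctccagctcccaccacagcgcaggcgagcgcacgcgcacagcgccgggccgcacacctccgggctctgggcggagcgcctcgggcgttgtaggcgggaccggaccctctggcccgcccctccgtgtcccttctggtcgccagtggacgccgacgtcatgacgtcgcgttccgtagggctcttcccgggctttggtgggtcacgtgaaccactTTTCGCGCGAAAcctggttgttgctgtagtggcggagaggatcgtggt
MCM6: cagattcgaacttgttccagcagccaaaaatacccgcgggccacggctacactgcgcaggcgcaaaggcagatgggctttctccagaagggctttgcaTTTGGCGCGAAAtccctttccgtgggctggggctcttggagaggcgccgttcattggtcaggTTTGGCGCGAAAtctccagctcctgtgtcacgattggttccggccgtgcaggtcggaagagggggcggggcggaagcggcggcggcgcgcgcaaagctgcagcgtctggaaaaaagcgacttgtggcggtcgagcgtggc
CDC6: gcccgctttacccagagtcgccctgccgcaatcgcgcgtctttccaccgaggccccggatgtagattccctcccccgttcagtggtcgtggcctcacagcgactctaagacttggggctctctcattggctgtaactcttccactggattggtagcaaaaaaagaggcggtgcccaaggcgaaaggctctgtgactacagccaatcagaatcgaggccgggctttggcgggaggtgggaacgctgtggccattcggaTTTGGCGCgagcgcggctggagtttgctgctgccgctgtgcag
MCM10: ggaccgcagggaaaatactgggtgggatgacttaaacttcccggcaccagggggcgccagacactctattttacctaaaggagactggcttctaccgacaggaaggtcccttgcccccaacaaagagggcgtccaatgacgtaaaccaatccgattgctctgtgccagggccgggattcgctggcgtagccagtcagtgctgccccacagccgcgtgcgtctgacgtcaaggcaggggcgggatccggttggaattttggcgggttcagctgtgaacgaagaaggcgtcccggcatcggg
Counted from the gene start as base 1, with no base 0, the words of MCM2 spanned bases 3 to 14 and that of CDC6 bases 8 to 15, both just downstream of the start. MCM6 carried its pairs of overlapping words from base -152 to -141 and from -90 to -79. MCM3 held words from base -174 to -167 and from -4 to 4, MCM7 from -187 to -180 and from -9 to -2, and CDT1 from -35 to -28. GMNN, like MCM10, held none of the 4 words. When the same words were also allowed to end in G, a choice made after the sequences had been seen, MCM10 matched through TTTGGCGG and the count was 7 of 8, against 6.20% of all promoters and 10.4% of those of expressed genes. CCAAT, a common promoter word, was in 5 of the 8, against 37.3% of expressed genes, and the E box CAGCTG only in MCM10 among the 8, against 17.2%. A match in these letters is a description of the sequence and no measurement of binding. Across all expressed genes with a promoter in the table, those with an E2F word had medians of -0.35 (RD) and -0.26 (JR1) on the log2 scale, and those without it of -0.28 and -0.21. These medians are of the deposited TPM. On the same scale the medians of the 10 licensing genes, given next and with MCM4 and MCM5 included, lay below those of all carriers of the word. What part the words have in this was not tested.

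**Figure D1:**
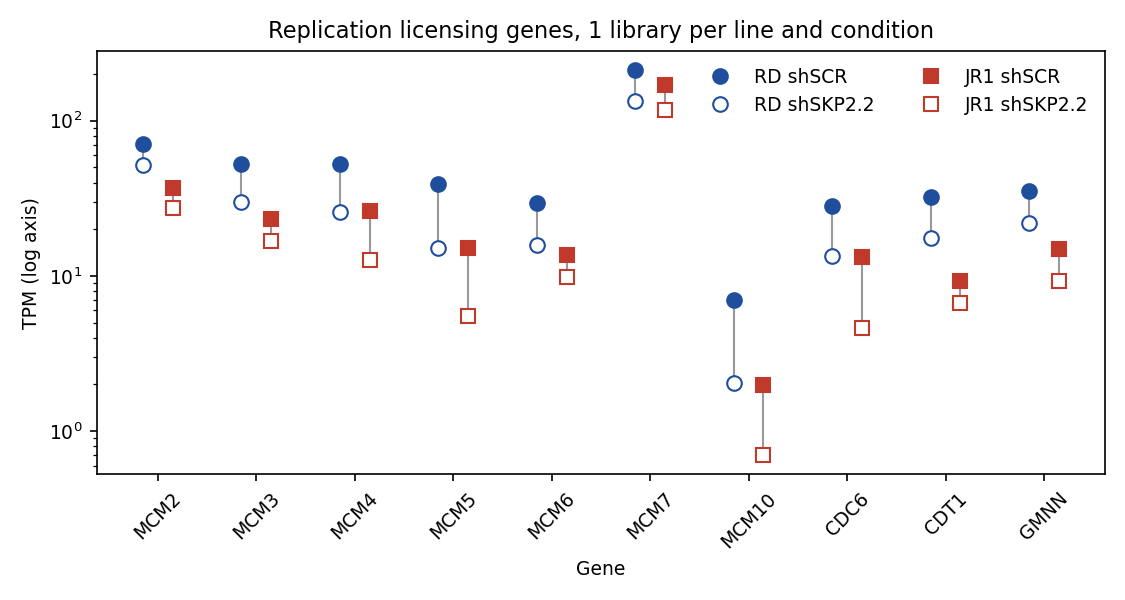
Levels of the 10 licensing genes in the 4 libraries, in TPM on a log axis, with 1 point per library and no error bar because there is 1 library per line and hairpin. For each of the 10 genes the RD shSCR point is the highest and the JR1 shSKP2.2 point the lowest.

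After SKP2 knockdown all 10 licensing genes were lower, in both lines. The median of their log2 changes was -0.84 for RD and -0.58 for JR1, with a range of -1.40 (MCM10) to -0.46 (MCM2) in RD and of -1.34 (CDC6) to -0.42 (MCM2) in JR1. All 10 also lay below the median of the expressed genes in each line, where the medians relative to it were -0.57 and -0.37. After removal of the structural RNA genes all 10 were still lower in both lines, with medians of -0.47 in RD and -0.31 in JR1. Among all expressed genes 61.1% were lower in both lines by the deposited TPM, and 31.9% of the 14736 genes then expressed after the removal. RNA from a whole culture cannot tell apart fewer cells in a replicating state and less of each transcript per cell.

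A lower level by at least 1.5-fold, on TPM + 1, was found for 9 of the 10 genes in RD, all but MCM2, where 23.2% of the expressed genes were that much lower. In JR1 it was found for 5 of the 10, MCM4, MCM5, MCM10, CDC6 and GMNN, against 23.4% of the expressed genes. At the stricter limit of 2-fold, MCM5, MCM10 and CDC6 were lower in RD, 3 of 10 against 7.37%, and MCM5 and CDC6 in JR1, 2 of 10 against 9.05%. With the structural RNA genes removed, 4 of the 10 were lower by at least 1.5-fold in RD against 10.1% of the 14736 genes then expressed. In JR1 they were 4 against 15.6%. At 2-fold they were 1 in RD against 3.41% and 2 in JR1 against 6.73%. Each of these shares was above that of all genes expressed under the same scaling. At 2-fold, however, they rest on 1 to 3 genes, with MCM5 and CDC6 in both lines by the deposited TPM.

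The subunits of the helicase ring differed in how much transcript they kept. MCM5 was at 39.0 TPM in RD shSCR and 15.1 TPM in RD shSKP2.2, and at 15.1 and 5.55 TPM in the same order in JR1. It thus kept 38.7% of its level in RD and 36.9% in JR1, the least of the 6 subunits in each line. On the log2 scale its changes were -1.32 and -1.29, and only 3.11% of the expressed genes in RD and 4.44% in JR1 had a lower change. MCM4, on chromosome 8 from base 47960941 to 47978160, went from 52.4 to 25.8 TPM in RD cells and from 26.1 to 12.7 TPM in JR1 cells. MCM4, which forms part of the catalytic core with MCM6 and MCM7, therefore kept 49.3% and 48.7%, with log2 changes of -0.99 and -0.98. MCM4 and MCM5 were the subunits farthest from the median of all genes in both lines, relative to which MCM4 lay at -0.72 and -0.77 and MCM5 at -1.05 and -1.08.

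At the other end stood MCM2. It was at 71.2 TPM in RD shSCR, 51.6 TPM in RD shSKP2.2, 36.8 TPM in JR1 shSCR and 27.3 TPM in JR1 shSKP2.2. Thus 72.5% was kept in RD and 74.3% in JR1, and its log2 changes were -0.46 and -0.42. After removal of the structural RNA genes MCM2 was at -0.06 in RD and -0.14 in JR1, so most of its lower TPM lay within the shift of all genes. MCM7, the most abundant of all licensing transcripts, was at 212 TPM in RD shSCR, 133 TPM in RD shSKP2.2, 170 TPM in JR1 shSCR and 117 TPM in JR1 shSKP2.2. Its log2 changes of -0.67 and -0.54 became -0.26 and -0.25 after the removal.

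MCM3 and MCM6 were lower by a greater amount in RD than in JR1. MCM3 went from 52.7 to 30.2 TPM in RD, where it kept 57.3%, and from 23.2 to 16.8 TPM in JR1, where it kept 72.2%. MCM6 went from 29.3 to 15.9 TPM in RD cells and from 13.7 to 9.78 TPM in JR1 cells, which left 54.3% and 71.5%. The log2 changes were -0.78 and -0.45 for MCM3 and -0.84 and -0.45 for MCM6. The gap between the lines was 0.34 for MCM3 and 0.40 for MCM6 on the log2 scale, and 0.22 and 0.28 after removal of the structural RNA genes, and no replicate is at hand to set it against.

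Because MCM2 to MCM7 enter the ring in equal numbers and TPM are per length, their levels could be added and compared within a library. Shares and ratios within a library do not depend on its scaling, while the sum does. The sum went from 457 to 272 TPM in RD cells and from 285 to 189 TPM in JR1 cells, so that 59.6% and 66.4% were kept. On the log2 scale the sum changed by -0.75 and -0.59, or by -0.34 and -0.30 without the structural RNA genes. MCM7 alone made up 46.5% of the sum with shSCR and 49.1% with shSKP2.2 in RD, and 59.7% and 61.9% in JR1. MCM2 came next in every library, with 15.6%, 19.0%, 12.9% and 14.4% in that order. The transcripts of the ring were thus far from equal in number, and the ratio of the highest to the lowest subunit was 7.24 with shSCR and 8.86 with shSKP2.2 in RD, and 12.4 and 21.1 in JR1.

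The lowest subunit was not the same with both hairpins. With shSCR it was MCM6 in both lines, at 6.42% of the sum in RD and 4.80% in JR1. With shSKP2.2 it was MCM5 in both lines. MCM5 made up 8.53% of the sum with shSCR and 5.54% with shSKP2.2 in RD, and 5.28% and 2.93% in JR1. Ratios of neighbouring subunits show the same shift. MCM5 over MCM2, which sit side by side in the ring where it opens for loading, went from 0.547 to 0.292 in RD and from 0.409 to 0.203 in JR1. MCM5 over MCM3 went from 0.740 to 0.499 and from 0.649 to 0.331. MCM7 over MCM4 went from 4.05 to 5.17 in RD and from 6.52 to 9.21 in JR1. MCM5 was thus lower against its partners with shSKP2.2 in each line, and the gap between MCM7 and MCM4 was wider.

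**Figure D2:**
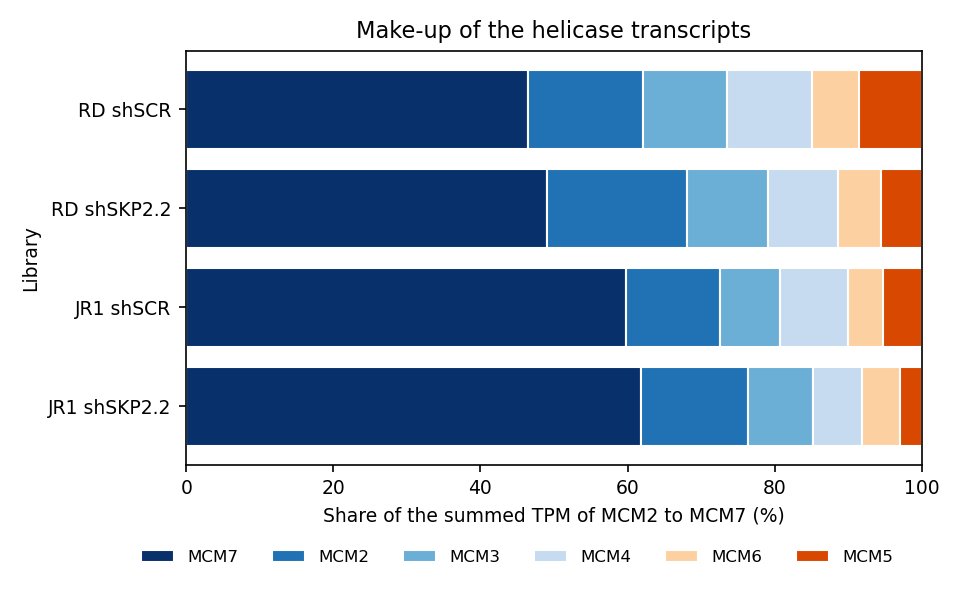
Share of each subunit in the summed TPM of MCM2 to MCM7, in percent, for the 4 libraries. MCM7 takes between 46.5% and 61.9% of the sum, and MCM5 takes a smaller share with shSKP2.2 than with shSCR in both lines.

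Of the loaders, CDC6 was lower in both lines and more so in JR1. CDC6, the ATPase that joins ORC at the origin, was at 28.3 TPM in RD shSCR and 13.4 TPM in RD shSKP2.2, and at 13.2 and 4.59 TPM in JR1. It kept 47.2% in RD and 34.8% in JR1. The log2 changes were -1.03 and -1.34, the latter being the lowest among the licensing genes in JR1, with 3.97% of the expressed genes lower still. By the deposited TPM, CDC6 alone of the 10 had a more negative change in JR1, with a difference of the log2 changes (JR1 minus RD) of -0.32. Which genes join it depended on the scaling. After removal of the structural RNA genes the difference was -0.51 for CDC6 and also below 0 for MCM5 (-0.15), MCM4 (-0.12), GMNN (-0.09) and MCM2 (-0.08), and relative to the medians of all genes these 4 lay between -0.04 and -0.01. With 0.1 TPM added in place of 1 it was -0.43 for CDC6, -0.06 for MCM5 and -0.01 for MCM4.

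CDT1, which brings the MCM ring to ORC and CDC6, went from 32.3 to 17.6 TPM in RD cells and from 9.26 to 6.66 TPM in JR1 cells. It kept 54.4% in RD and 71.9% in JR1, and its log2 changes were -0.84 and -0.42. GMNN, its inhibitor, went from 35.4 to 21.9 TPM in RD cells and from 14.9 to 9.32 TPM in JR1 cells, and kept 61.9% and 62.6%, with log2 changes of -0.67 and -0.62. The inhibitor was thus lower to about the same degree in each line, while CDT1 was lower to a greater degree in RD. The ratio of CDT1 to GMNN was 0.913 with shSCR and 0.802 with shSKP2.2 in RD, and 0.621 and 0.715 in JR1, so it moved in opposite directions in the lines. CDC6 over GMNN went down in both, from 0.801 to 0.610 in RD and from 0.886 to 0.492 in JR1. Set against the sum of the ring subunits, CDC6 was at 6.20% with shSCR and 4.92% with shSKP2.2 in RD, and 4.63% and 2.43% in JR1. GMNN was at 7.75%, 8.06%, 5.23% and 4.93%, and CDT1 at 7.08%, 6.46%, 3.25% and 3.52%, in the same order. Of these 3, only CDC6 had a smaller share with shSKP2.2 in both lines. The share of CDT1 was smaller in RD and larger in JR1, and that of GMNN larger in RD and smaller in JR1. No replicate is at hand to set these shifts against.

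MCM10 was the least abundant licensing transcript in all 4 libraries. It was at 7.05 TPM in RD shSCR, 2.04 TPM in RD shSKP2.2, 1.98 TPM in JR1 shSCR and 0.70 TPM in JR1 shSKP2.2. It kept 28.9% in RD and 35.4% in JR1, with log2 changes of -1.40 and -0.81. At these levels the added 1 TPM weighs on the value, and with 0.1 TPM added the changes were -1.74 and -1.38. The gap between the lines then went from 0.60 to 0.36. CDC45, a helicase component that acts at the same step, went from 16.3 to 5.55 TPM in RD cells and from 5.54 to 2.44 TPM in JR1 cells. MCM10 over CDC45 was 0.433 and 0.368 in RD and 0.357 and 0.287 in JR1.

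By level, MCM7 and MCM2 ranked first and second and MCM10 last in every library. MCM5 ranked 5 of 10 with shSCR and 8 of 10 with shSKP2.2 in both lines, behind GMNN, CDT1 and MCM6. CDT1 ranked 7 of 10 in RD shSCR and 9 of 10 in JR1 shSCR. Neighbours in these orders, such as MCM3 at 52.7 and MCM4 at 52.4 TPM in RD shSCR or MCM5 at 15.1 and GMNN at 14.9 TPM in JR1 shSCR, could not be told apart, since no spread is known.

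The lines also differed in the level of licensing transcripts before any knockdown. With shSCR all 10 were lower in JR1 than in RD, with a median log2 difference of -1.10, against -0.23 for all expressed genes, and of -0.91 after removal of the structural RNA genes, against -0.04. A lower level in JR1 by at least 2-fold was found for 7 of the 10, MCM3, MCM5, MCM6, MCM10, CDC6, CDT1 and GMNN, where 6.50% of the expressed genes were that much lower. After the removal 4 of the 10 were left at this limit, MCM5, MCM10, CDT1 and GMNN, against 5.08% of the genes then expressed, and relative to the median of all genes 3, MCM5, MCM10 and CDT1. MCM3, MCM6 and CDC6 were thus 2-fold lower in JR1 only by the deposited TPM. The largest differences were those of CDT1, at 28.7% of its RD level and -1.70 on the log2 scale, and MCM10, at 28.1%. MCM7 was the exception at 80.2% of the RD level. With shSKP2.2 all 10 were again lower in JR1, with a median of -0.93, and 4 of 10, MCM5, CDC6, CDT1 and GMNN, by at least 2-fold against 5.39% of the expressed genes. After the removal MCM10 joined these for 5 of 10, against 6.34% of the genes then expressed, and relative to the median of all genes MCM5, CDC6 and CDT1 remained. By the deposited TPM without the added 1, MCM10 was already at 34.3% of its RD level, 0.70 against 2.04 TPM. At such levels its place at the 2-fold limit depends on the added 1 TPM. With shSKP2.2 MCM7 was at 87.7% and CDC6 at 34.3% of the RD level. These differences and the changes above share the same libraries. By the deposited TPM, several licensing transcripts were at similar levels in RD with shSKP2.2 and in JR1 with shSCR. Structural RNA genes held 62.3% of all TPM in the former library and 57.1% in the latter, so such a match depends on the scaling. MCM5 was at 15.1 TPM in both, CDC6 at 13.4 and 13.2 TPM, MCM4 at 25.8 and 26.1 TPM, and MCM10 at 2.04 and 1.98 TPM. Higher in RD were CDT1 at 17.6 and 9.26 TPM, GMNN at 21.9 and 14.9 TPM and MCM2 at 51.6 and 36.8 TPM. MCM3 at 30.2 and 23.2 TPM and MCM6 at 15.9 and 13.7 TPM were also higher in RD. MCM7 was lower in RD, at 133 and 170 TPM.

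The genes that act just before and just after licensing were read from lists drawn up from general knowledge, with earlier results known. For comparison, about 75% (RD) and 68.9% (JR1) of all expressed genes were lower by the deposited TPM. After removal of the structural RNA genes 40.8% and 47.4% of the genes then expressed were lower. Of the 6 ORC genes, whose products mark the origin, 5 were lower in each line, a share not far from that of all genes by the deposited TPM. The ORC medians were -0.45 in RD and -0.52 in JR1, and after the removal, where the same number was lower, -0.07 and -0.29. ORC1 went from 22.3 to 16.3 TPM in RD cells and from 10.4 to 6.62 TPM in JR1 cells, and the ratio of CDC6 to ORC1 went from 1.27 to 0.822 and from 1.28 to 0.693. ORC6 went from 24.1 to 17.1 TPM in RD cells and from 14.7 to 5.00 TPM in JR1 cells, with log2 changes of -0.47 and -1.39. ORC2 (-0.56 and -0.28), ORC3 (-0.92 and -0.53) and ORC4 (-0.35 and -0.51) were also lower, in RD and JR1 respectively. ORC5 alone was higher, from 11.3 to 15.0 TPM in RD cells and from 19.7 to 29.1 TPM in JR1 cells, and it was also the ORC gene with a higher level in JR1 shSCR than in RD shSCR. Only ORC3 in RD and ORC6 in JR1 were lower by at least 1.5-fold, against 23.2% and 23.4% of all expressed genes. With a list of 6 genes, 1 of 6 in each line is not far from these shares. After the removal 0 of 6 were that much lower in RD, against 10.1% of the genes then expressed. In JR1 it was 1 of 6 against 15.6%.

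Among the other MCM and geminin family genes, 4 of 5 were expressed and all 4 were lower, with medians of -0.47 and -0.44. MCM8, a helicase of homologous recombination, went from 8.61 to 3.11 TPM in RD cells and from 4.27 to 1.96 TPM in JR1 cells. MCM9, its partner, had log2 changes of -0.38 and -0.13, and MCIDAS of -0.12 and -0.51, and after removal of the structural RNA genes MCM9 was at 0.09 in JR1 and MCIDAS at 0.15 in RD. GMNC was at most 0.02 TPM. The fully licensed origin is then activated by CDC7 with DBF4, CDC45, the GINS complex and their helpers. Of the 14 in this list, all were lower in RD and 13 in JR1, with medians of -0.82 and -0.74, close to that of the licensing genes in RD and below it in JR1. After the removal 10 of the 14 were lower in RD and 12 in JR1, with medians of -0.48 and -0.62. GINS1 was the lowest of them, from 19.4 to 3.23 TPM in RD cells and from 8.17 to 1.44 TPM in JR1 cells, with log2 changes of -2.27 and -1.91. GINS3 was at -1.07 and -1.11 and GINS4 at -1.04 and -1.21, whereas GINS2 was at -0.87 in RD and -0.07 in JR1, and at 0.19 in JR1 after the removal. The transcripts of the kinase and its activators differed in their changes. CDC7 went from 11.1 to 8.89 TPM in RD cells and from 7.11 to 7.26 TPM in JR1 cells, and DBF4, its activator, had log2 changes of -0.32 and -0.44. After the removal CDC7, DBF4 and DONSON were on the higher side in RD, at 0.08, 0.06 and 0.08. DBF4B, the other activator, was lower at -0.85 and -1.04.

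Downstream, 22 of 23 genes of the replication fork were lower in each line, with medians of -0.70 in RD and -0.63 in JR1. After the removal 20 (RD) and 18 (JR1) of the 23 were lower, with medians of -0.32 and -0.39. POLD1, the catalytic subunit of DNA polymerase delta, was the lowest, from 41.4 to 11.2 TPM in RD cells and from 20.4 to 6.57 TPM in JR1 cells. LIG1, the ligase that seals Okazaki fragments, kept the next lowest place in RD, from 26.7 to 10.2 TPM, and went from 7.55 to 3.05 TPM in JR1. POLE4 was the gene on the higher side, at 0.16 and 0.34. Genes that turn licensing proteins over were mixed, with 10 of 11 lower in RD and 8 of 11 in JR1 and medians of -0.60 and -0.42, the JR1 count being near the share of all genes. After the removal 7 of the 11 were lower in RD and 8 in JR1, with medians of -0.22 and -0.16. CKS1B, the cofactor of SKP2 in the recognition of p27, went from 211 to 111 TPM in RD cells and from 120 to 47.1 TPM in JR1 cells, the lowest change of that list in both lines at -0.91 and -1.33. DDB1, the adaptor of CRL4, was the highest, at 0.06 and 0.26, and DTL, its substrate receptor for CDT1, was at -0.64 and -0.76. No difference between these lists and the licensing genes was tested.

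Outside these lists, the 5 expressed genes nearest to the median licensing gene were found by Euclidean distance over 3 values, the log2 changes in RD and in JR1 and the log2 difference of JR1 to RD with shSCR. NCAPH2 was the nearest, at a distance of 0.034, with 27.2 and 14.7 TPM in RD and 12.1 and 7.96 TPM in JR1. It was followed by ARHGAP11B at 0.069, ARHGEF26 at 0.101, LEMD2 at 0.103 and MXD3 at 0.116. All 5 were nearer than any licensing gene was to its own median, of which MCM6 at 0.144 and MCM3 at 0.154 were the closest and MCM5 at 0.883 the farthest. The 5 were picked as the nearest of all expressed genes outside the lists. Their closeness therefore says nothing of how tightly the licensing genes group.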

How the data were processed

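Poly-A RNA of 4 libraries (RD and JR1, each with shSCR or shSKP2.2) was sequenced as pairs of 150 bases from directional libraries. The authors aligned reads to GRCh38 with STAR 2.7.9a and estimated levels with RSEM 1.3.2, per their methods and the submitters' processing notes, and deposited TPM with 2 decimals that sum to 1e+06 per library; the gene annotation is not given in the sources used here. TPM sum to a fixed total, so a rise of abundant RNAs lowers the TPM of all others. Read counts, and thus depth and counting error, are unknown. With 1 library per line and hairpin, no test was run, and fixed folds (1.5 and 2) on TPM + 1 stood in for calls. Genes averaging at least 1 TPM were kept.

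The licensing genes and all lists were chosen with earlier results of these data known. Named genes were all 10 licensing genes and SKP2, the lowest and highest member of each related list, members changed by at least 2-fold in both lines, the ORC, GINS and CDC7-DBF4 genes, and the 5 nearest genes. DTL, CDC45 and DBF4B, named besides, were picked after their values were seen. The alternatives were 0.1 TPM added, centring on the median, removal of 683 short structural RNA genes by symbol, scaling to the same 75th percentile, no filter, and a minimum mean of 5 TPM. Scripts were checked on simulated data. Promoters came from RefSeq (GRCh38.p14), and protein sequences were not used here. The fold-change lists of the study's supplement were not used. Python 3.11.15, numpy 2.4.6, pandas 2.3.3 and matplotlib 3.10.9 were used.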

Additional observations from a re-analysis of the deposited data

Results flagged for a closer look

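The lines moved in opposite directions in a pair of results, and with 1 library per line and hairpin neither difference was tested. The ratio of CDT1 to GMNN, each with 1 TPM added, changed by -0.18 (RD) and 0.20 (JR1) on the log2 scale, a difference of 0.378. CDC7 changed by -0.29 (RD) and 0.03 (JR1), a difference of 0.316, and after removal of the short structural RNA genes it was at 0.08 in RD and 0.30 in JR1, both on the higher side.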

How the results depend on the processing

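All 10 licensing genes were lower in both lines under every alternative that kept them, and the minimum mean of 5 TPM left 9, without MCM10. The sizes depended on the scaling. In RD the median was -0.57 after centring, -0.47 without the structural RNA genes and -0.50 at the same 75th percentile. Each of these gave 4 genes lower by at least 1.5-fold, and the last 2 gave 1 lower by at least 2-fold. The log2 change of the MCM2 to MCM7 sum in RD was -0.48, -0.34 and -0.39 in that order. In JR1 the median was -0.37, -0.31 and -0.31 and the sum -0.37, -0.30 and -0.30. With 0.1 TPM added, 4 genes in JR1 were lower by at least 2-fold, since less is added to low levels. The median difference of JR1 to RD was -0.87, -0.91 and -0.86 with shSCR, and with shSKP2.2 it was -1.12 with 0.1 TPM added, -0.76 after centring and -0.80 at the same percentile. Scaling moved the share of all 2-fold changes that were lower, from 87.2% to 62.7% centred and 47.5% without structural RNA genes in RD, from 83.6% to 64.7% and 58.8% in JR1, from 65.4% to 43.0% and 47.0% for JR1 against RD with shSCR, and from 66.6% to 48.9% and 59.6% with shSKP2.2. No paired analysis was possible because each line and hairpin has 1 library, and for the same reason no replicate could be left out. The precision of each TPM is unknown, and low levels such as those of MCM10 are the least certain.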
